A study of Mus musculus with 10 samples.

Results

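The 10 extraembryonic endoderm genes Gata4, Gata6, Sox17, Sox7, Lama1, Lamb1, Lamc1, Pdgfra, Dab2 and Afp were taken by symbol from tables of 54532 mouse genes, and each symbol matched 1 gene. RNA sequencing covered 10 libraries of 129SV mouse cells, in 8 groups of 4 cell types. The EpiSC, or epiblast stem cells, the cultured counterpart of the epiblast after implantation, gave 5 libraries: the haploid lines haEpi1 and haEpi5 labelled p53-KO, a female and a male diploid wild-type library (the female one is read from a title ending in fema), and 1 diploid library labelled p53-KO. Epiblast-like cells (EpiLC) gave 1 haploid library labelled p53-KO and 1 haploid wild-type library. Embryonic stem cells (ESC), the counterpart of the earlier naive epiblast, gave 1 haploid and 1 diploid wild-type library, and mouse embryo fibroblasts (MEF) gave 1 diploid wild-type library. The labels give no passage, sorting or feeder conditions. The series text mentions triplicates, but only these 10 libraries were analysed here, and whether a library pools cultures is not stated, so n counts libraries.

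The extraembryonic endoderm begins as the primitive endoderm of the blastocyst, which arises beside the naive epiblast and later forms the parietal and visceral endoderm of the yolk sac. GATA6 and GATA4 switch on this lineage, SOX17 and SOX7 follow, and the cells display the receptor PDGFRA, use the adaptor DAB2 for endocytosis and lay down a basement membrane rich in laminin-111, the trimer of the chains encoded by Lama1, Lamb1 and Lamc1. AFP is a serum protein secreted by the visceral endoderm and later by the fetal liver. Pdgfra, Dab2, Gata4, Gata6, Lamb1 and Lamc1 are also used by mesenchymal cells.

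Total counts ran from 15862113 to 18814003 per library, so that a count of 0, read as at most 3 counts, allowed a level of 0.15 to 0.194 CPM, the library-size-scaled read count after TMM normalisation. Intervals and floors cover counting error only. Trp53, the target of the knockout, stood at 2.17 to 61.8 CPM in the 4 libraries labelled p53-KO and at 28.5 to 375 CPM in the 6 labelled wild type; both haploid p53-KO EpiSC libraries (50.5 and 61.8) exceeded the female wild-type one (36.9), so genotypes are those of the labels. The summed level of 8 naive ESC markers was 1895 to 3968 CPM in ESC, 858 to 1332 CPM in EpiLC and 17.9 to 88.5 CPM in EpiSC, and that of 12 fibroblast markers was 60449 CPM in MEF against at most 1600 CPM elsewhere. Trophoblast markers (8 genes) summed to 6.90 to 147 CPM, and primitive streak and definitive endoderm markers (8 genes) to 5.09 to 63.2 CPM, over all libraries. Replicates of a group were different lines or sexes, and a cell type pools p53 labels and ploidies. The p-values therefore cover only the spread among these particular libraries, biological and technical together.

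All 10 genes had reads, but at very different levels. On the length-corrected scale of the deposited FPKM, Lamc1 ran from 30.1 to 113 and Lamb1 from 4.04 to 49.3 over the 9 pluripotent libraries, whereas Gata6, Sox17 and Afp stayed under 1 FPKM in each of these 9. Among these 9, Gata4 (1.54) and Sox7 (1.30) passed 1 FPKM in the haploid ESC library alone. Sox17 had at most 12 reads in any library.

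**Figure D1:**
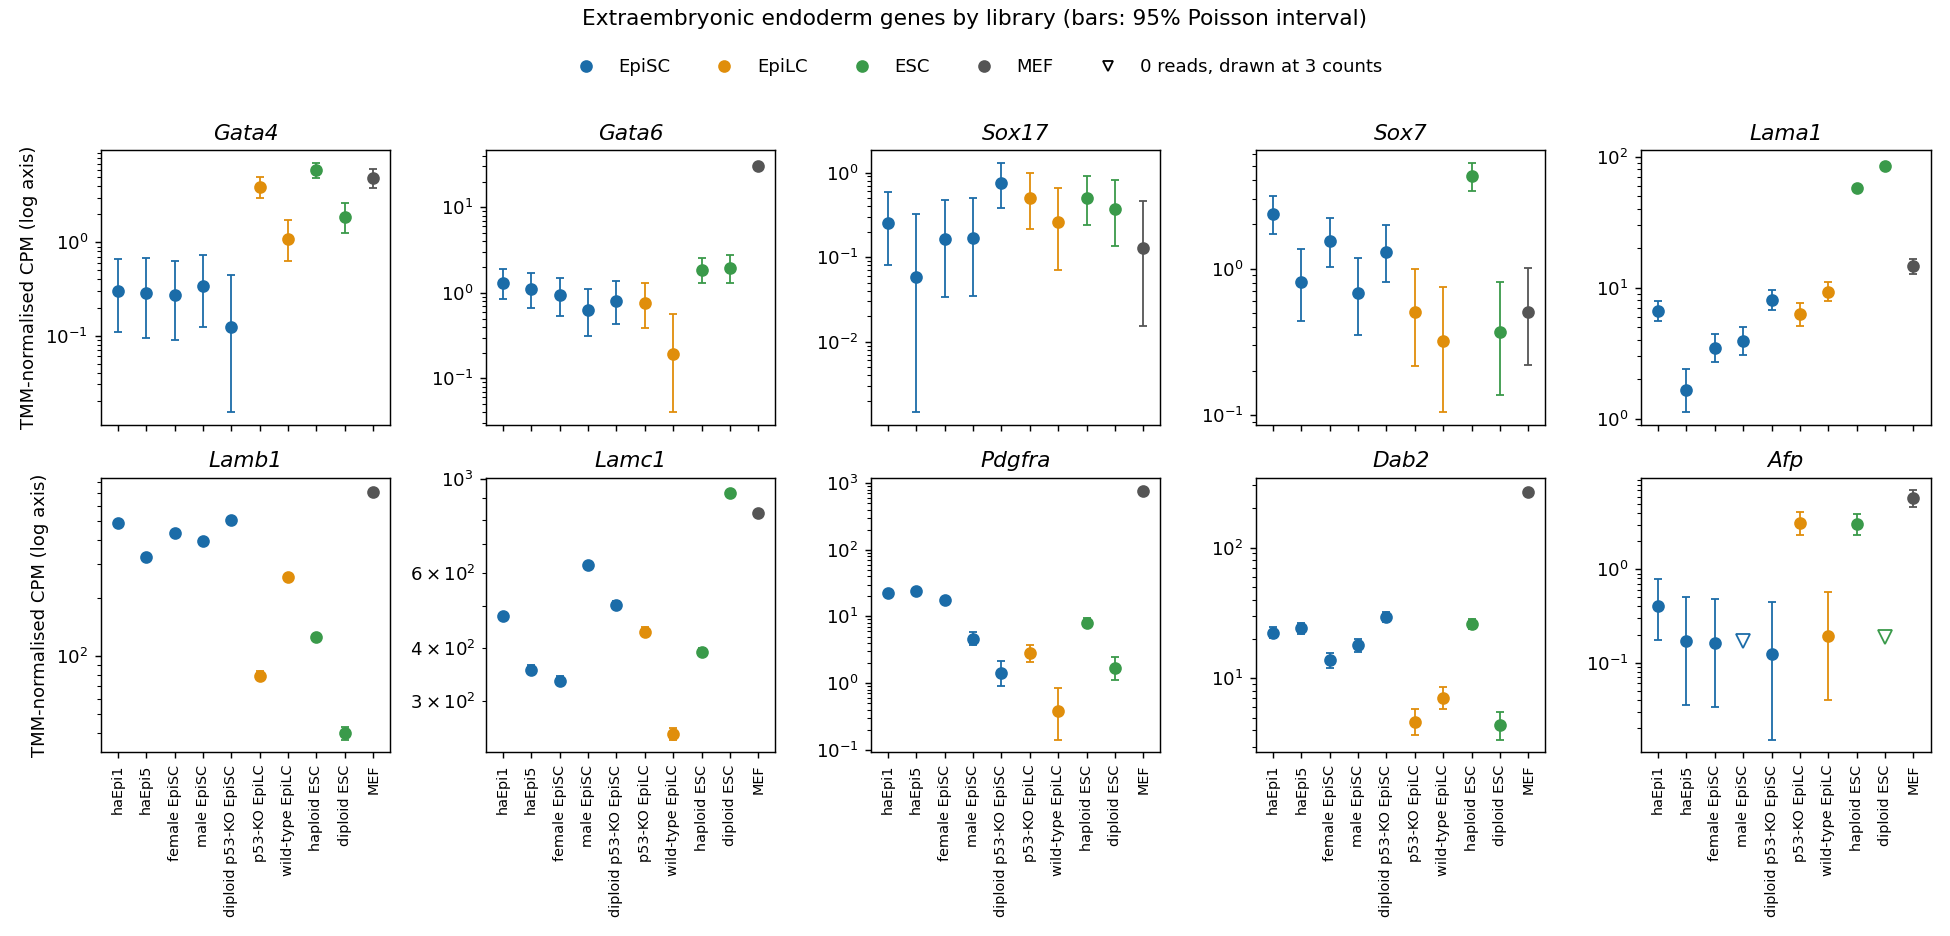
Level of each of the 10 genes in each library, in TMM-normalised CPM on a log axis, with 95% Poisson intervals of the count as bars and 0 reads drawn as an open triangle at 3 counts. Gata4 lies below 0.4 CPM in every EpiSC library, Lama1 stands highest in the ESC libraries (57.4 and 85.1 CPM), and Pdgfra (771 CPM), Dab2 (267 CPM), Lamb1 (712 CPM) and Gata6 (30.2 CPM) stand highest in MEF.

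Gata4 (ENSMUSG00000021944, chromosome 14, 63198922 to 63271692, minus strand, mm10), a zinc finger factor that drives primitive endoderm, was lowest in EpiSC. It stood at 0.301, 0.288, 0.274, 0.339 and 0.124 CPM in the haEpi1, haEpi5, female, male and diploid p53-KO EpiSC libraries, from 2 to 6 reads each. It stood at 3.90 CPM in the p53-KO and 1.10 CPM in the wild-type EpiLC library, at 5.94 CPM in the haploid and 1.86 CPM in the diploid ESC library, and at 4.91 CPM in MEF. Every EpiSC library lay below every other library, and the ESC and EpiLC libraries overlapped. In bulk RNA, fewer cells of a type and less RNA per cell cannot be told apart.

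Gata6 (chromosome 18), which acts at the head of the same programme, did not follow Gata4 among the pluripotent libraries. It stood at 1.31, 1.09, 0.930, 0.622 and 0.806 CPM in the EpiSC libraries in the same order, at 0.755 CPM in the p53-KO and 0.194 CPM in the wild-type EpiLC library, and at 1.85 CPM in the haploid and 1.93 CPM in the diploid ESC library. The 2 ESC libraries lay just above all EpiSC libraries, EpiSC and EpiLC overlapped, and MEF, at 30.2 CPM, stood far above both. A noncoding gene on the opposite strand within Gata6 had at most 11 reads in any library.

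Sox17 and Sox7 encode related SOX factors of primitive endoderm, definitive endoderm and endothelium. Sox17 (ENSMUSG00000025902, chromosome 1, 4490931 to 4497354) stood at 0.251, 0.0576, 0.164, 0.170 and 0.744 CPM in the EpiSC libraries, at 0.504 and 0.258 CPM in the p53-KO and wild-type EpiLC libraries, at 0.499 and 0.373 CPM in the haploid and diploid ESC libraries and at 0.128 CPM in MEF. With 1 to 12 reads per library, EpiSC overlapped every other cell type, and MEF lay below both EpiLC and both ESC libraries. Sox7 (ENSMUSG00000063060, chromosome 14, 63943673 to 63950732) stood at 2.36, 0.807, 1.53, 0.679 and 1.30 CPM in EpiSC, at 0.504 and 0.323 CPM in the p53-KO and wild-type EpiLC libraries, at 4.24 CPM in the haploid and 0.373 CPM in the diploid ESC library, and at 0.510 CPM in MEF. The haploid ESC library (85 reads) was highest and the diploid ESC library (6 reads) was among the lowest, so that ESC spanned the whole EpiSC range.

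The 3 laminin genes went different ways. Lama1 (ENSMUSG00000032796, chromosome 17, 67697259 to 67822647), the alpha chain of laminin-111, stood at 57.4 CPM in the haploid and 85.1 CPM in the diploid ESC library. Its level was 6.68, 1.67, 3.50, 3.96 and 8.12 CPM in the EpiSC libraries, 6.30 and 9.36 CPM in the p53-KO and wild-type EpiLC libraries and 14.6 CPM in MEF. Both ESC libraries stood above the other 8, and EpiSC and EpiLC overlapped.

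Lamb1 (ENSMUSG00000002900, chromosome 12, 31265234 to 31329644), the beta chain, was high in EpiSC instead, at 490, 327, 433, 395 and 510 CPM. It stood at 78.9 CPM in the p53-KO and 257 CPM in the wild-type EpiLC library, at 125 CPM in the haploid and 39.8 CPM in the diploid ESC library, and at 712 CPM in MEF. Every EpiSC library lay above every EpiLC and ESC library and below MEF, and EpiLC and ESC overlapped. Lamc1 (ENSMUSG00000026478, chromosome 1, 153218922 to 153332786), the gamma chain that most laminins share, varied least, with 474, 355, 334, 625 and 504 CPM in EpiSC, 437 and 251 CPM in the p53-KO and wild-type EpiLC libraries, 391 and 925 CPM in the haploid and diploid ESC libraries and 831 CPM in MEF, and the pluripotent cell types overlapped.

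Set against each other per length, the FPKM of Lamb1 was 61.3 to 191 times that of Lama1 in EpiSC and 12.2 to 26.8 times in EpiLC, but 2.13 times in the haploid and 0.456 times in the diploid ESC library. Among the 5 alpha chain genes, Lama5 held 83.3% to 97.6% of the summed FPKM in every pluripotent library. Lama1 held 12.3% and 14.5% in the haploid and diploid ESC libraries, 0.398% to 1.32% in EpiSC and 1.51% to 1.60% in EpiLC. In MEF the leading alpha chain was Lama4, with 77.9%. The share of Lama1 in both ESC libraries thus lay above that in every EpiSC and EpiLC library.

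**Figure D2:**
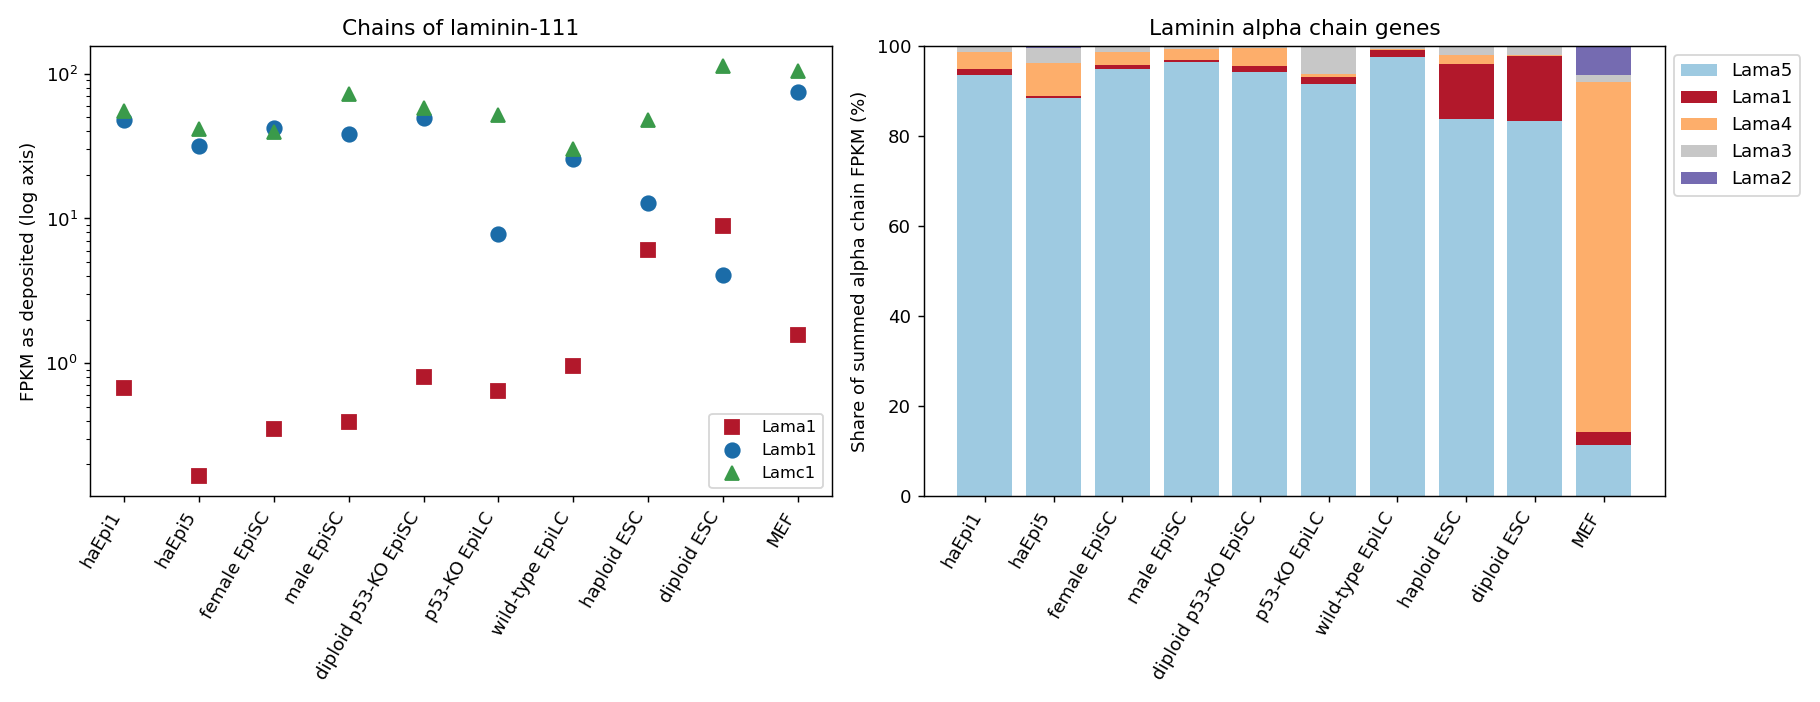
Left, FPKM as deposited of the genes of the 3 chains of laminin-111 in each library, on a log axis. Right, share of each alpha chain gene in the summed FPKM of Lama1 to Lama5, in percent; the red band of Lama1 is 12.3% and 14.5% in the ESC libraries and at most 1.60% in EpiSC and EpiLC.

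Upstream sequence was in the RefSeq table (GRCm38.p6) for 4 of the 10 genes, Lamb1, Pdgfra, Dab2 and Afp. The 250 bases before the RefSeq start site are shown for 3 of them, all on the plus strand: Lamb1 (chr12:31265043-31265292), the one of these genes that changed between EpiSC and ESC; Dab2 (chr15:6299539-6299788), whose level went with that of Lamb1 over the libraries; and Afp (chr5:90490464-90490713), listed with 0 reads in 2 libraries. Capitals mark CCGCCC in Lamb1, TGATAA in Dab2 and TATAAA in Afp.
Lamb1: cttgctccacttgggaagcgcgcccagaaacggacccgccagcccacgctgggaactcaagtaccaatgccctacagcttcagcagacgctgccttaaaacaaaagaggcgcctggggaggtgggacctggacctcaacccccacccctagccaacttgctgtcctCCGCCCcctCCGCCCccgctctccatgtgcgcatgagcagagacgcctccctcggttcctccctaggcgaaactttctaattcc
Dab2: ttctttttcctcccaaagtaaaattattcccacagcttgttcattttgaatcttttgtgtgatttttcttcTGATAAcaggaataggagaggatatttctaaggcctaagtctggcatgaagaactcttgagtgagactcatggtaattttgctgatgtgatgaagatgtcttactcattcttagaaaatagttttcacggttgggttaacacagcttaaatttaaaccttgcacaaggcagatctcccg
Afp: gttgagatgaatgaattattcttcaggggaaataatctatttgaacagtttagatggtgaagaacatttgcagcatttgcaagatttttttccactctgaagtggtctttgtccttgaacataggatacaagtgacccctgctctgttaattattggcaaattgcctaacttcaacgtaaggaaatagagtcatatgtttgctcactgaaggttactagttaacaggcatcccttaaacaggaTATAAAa

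The searched letters were AGATAA and TGATAA, which GATA factors bind, and CCGCCC, a GC box, each on both strands, and TATAAA on the strand of the gene. Lamb1 held CCGCCC at 84 and 75 bases before the RefSeq start site, which lies inside the gene as the count table gives it, so that the matches were 25 and 16 bases before the start there. The window was 62.0% G and C, against a median of 52.4% over 32817 windows of the same length, and 32.7% of these held CCGCCC. Dab2 held TGATAA at position -179 in a window of 36.8% G and C; 7.95% of all windows held TGATAA, and 16.6% held either GATA form. Afp (36.0% G and C) held TATAAA at position -7 from the RefSeq start and -30 from the start in the count table, a match found in 7.60% of windows. Pdgfra (54.4% G and C), a second start of Dab2, Lamb1 and Afp held neither GATA form.

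Pdgfra (ENSMUSG00000029231, chromosome 5, 75152292 to 75198215), the alpha receptor for platelet-derived growth factor, varied more within EpiSC than any other of the genes with reads in all libraries. Its level was 22.3 and 24.4 CPM in the haploid p53-KO pair (haEpi1, haEpi5), 17.8 CPM in the female and 4.64 CPM in the male wild-type library, and 1.43 CPM with the diploid p53-KO label, which is a 17.1-fold range. It stood at 2.83 and 0.387 CPM in the p53-KO and wild-type EpiLC libraries, at 8.04 and 1.68 CPM in the haploid and diploid ESC libraries, and at 771 CPM in MEF. The 3 highest pluripotent libraries were EpiSC, yet the EpiSC range covered both ESC libraries and the p53-KO EpiLC library.

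Dab2 (ENSMUSG00000022150, chromosome 15, 6299788 to 6440712), an endocytic adaptor of visceral endoderm, stood at 22.3, 24.2, 13.7, 17.9 and 29.5 CPM in the EpiSC libraries, above 4.66 and 7.10 CPM in the p53-KO and wild-type EpiLC libraries. The haploid ESC library (25.9 CPM) lay within the EpiSC range, whereas the diploid one (4.35 CPM) lay below both EpiLC libraries, and MEF stood at 267 CPM. Afp (ENSMUSG00000054932, chromosome 5, 90490737 to 90508907) stood at 0.402, 0.173, 0.164, 0 and 0.124 CPM in EpiSC, at 3.15 CPM in the p53-KO and 0.194 CPM in the wild-type EpiLC library, at 3.05 CPM in the haploid and 0 CPM in the diploid ESC library, and at 5.74 CPM in MEF. Afp therefore had 50 to 90 reads in the p53-KO EpiLC, haploid ESC and MEF libraries and 0 to 8 reads in the other 7.

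Fibroblast transcripts moved with some of these levels. The 12 fibroblast markers summed to 2.65% of their MEF level in haEpi5, 1.37% in haEpi1, 1.21% in the female, 0.619% in the male EpiSC library, and 1.88% in EpiSC that were diploid and p53-KO. The sum was 1.56% in the haploid and 0.0262% in the diploid ESC library, and 0.178% and 0.0492% in the p53-KO and wild-type EpiLC libraries. Pdgfra stood at 3.17%, 2.89%, 2.31%, 0.602% and 0.185% of its MEF level in those EpiSC libraries in the same order, and at 1.04% in the haploid and 0.218% in the diploid ESC library. In the p53-KO and wild-type EpiLC libraries it stood at 0.368% and 0.0502% of MEF.

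The order of the libraries by Pdgfra thus followed the fibroblast sum in part. In the diploid p53-KO EpiSC library the fibroblast sum was the second highest of the EpiSC and Pdgfra the lowest. Col1a2 alone stood at 521 CPM there, against 145 CPM in wild-type EpiSC, whereas Prrx1 stood at 3.06 against 34.7 CPM. Only 2 of the 12 markers were higher there than in wild-type EpiSC. Between haploid and diploid p53-KO EpiSC, 10 of the 12 were higher in the haploid libraries. All 12 markers had reads in the haEpi1, haEpi5, female, male and haploid ESC libraries, 6 of 12 (Col3a1, Dcn, Postn, Twist2, Prrx1 and S100a4) were at 0 in the diploid ESC library, 3 (Col3a1, Postn and S100a4) in the wild-type EpiLC library, and S100a4 alone in the diploid p53-KO EpiSC and p53-KO EpiLC libraries. The part of fibroblast RNA in the levels of Pdgfra was not tested. Gata4 in the haploid ESC library was 121% of its MEF level, Afp 53.1% and Dab2 9.72%, beside a fibroblast sum of 1.56% of MEF.

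**Figure D3:**
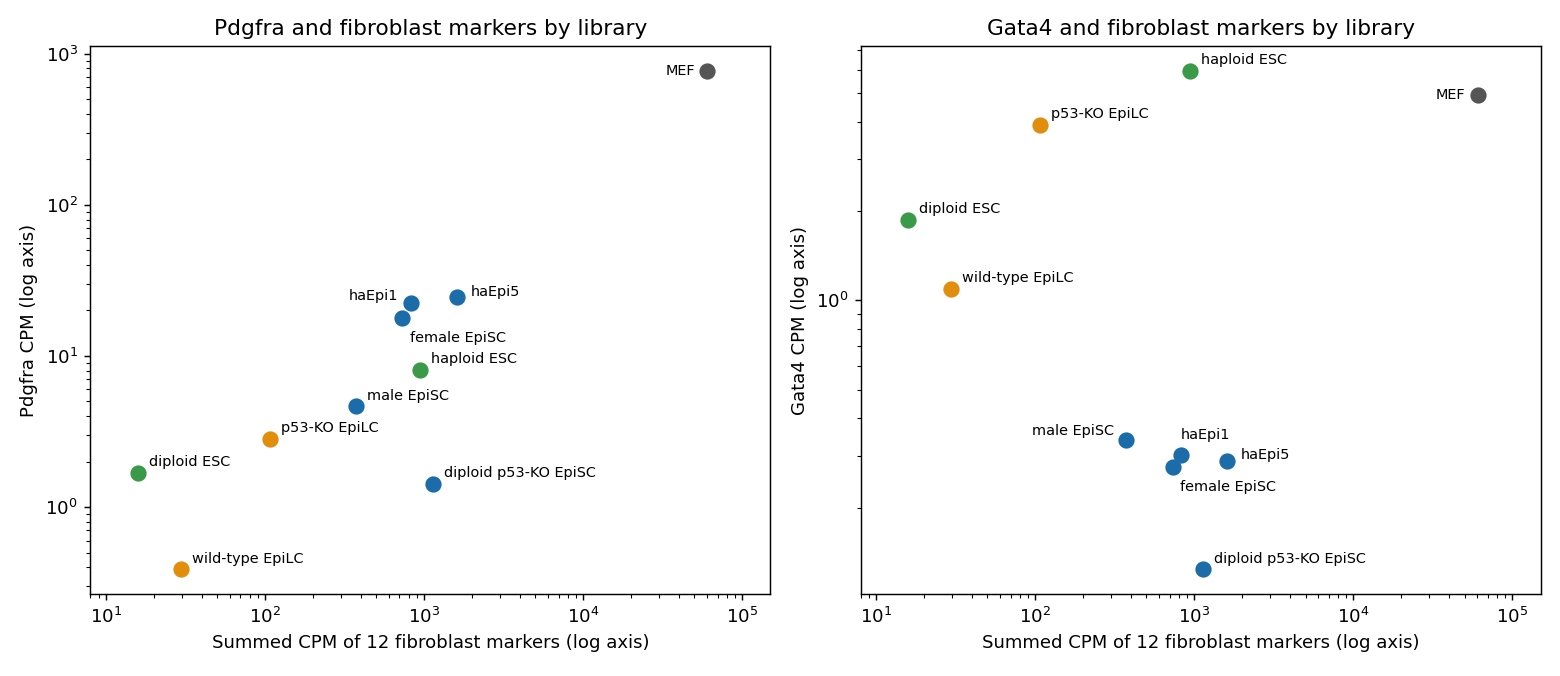
Level of Pdgfra (left) and Gata4 (right) in each library against the summed level of 12 fibroblast markers, all in TMM-normalised CPM on log axes. The diploid p53-KO EpiSC library has little Pdgfra (1.43 CPM) beside a fibroblast sum of 1139 CPM, though only 2 of the 12 markers were higher there than in wild-type EpiSC. Gata4 is lowest in the EpiSC libraries, whose fibroblast sums are 374 to 1600 CPM.

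Between EpiSC (n = 5) and ESC (n = 2), Gata4 and Lama1 fell and Lamb1 rose; the other 7 genes did not pass the test. The quasi-likelihood test of edgeR with Benjamini-Hochberg adjustment over 21104 genes, with all 10 libraries in the fit, called 3 of 10, against 16.9% of all genes. Lama1 was 15.2-fold lower in EpiSC (log2 fold change -3.92 ± 0.49 SE, adjusted p = 0.00109), with a mean of 4.79 ± 2.59 CPM (SD, n = 5) against 71.2 ± 19.6 CPM (SD, n = 2). Gata4 was 14.4-fold lower (-3.84 ± 0.63 SE, adjusted p = 0.00376), at 0.265 ± 0.0827 CPM against 3.90 ± 2.88 CPM. Lamb1 was 5.21-fold higher (2.38 ± 0.55 SE, adjusted p = 0.0171), at 431 ± 73.8 CPM against 82.4 ± 60.3 CPM.

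In this comparison Lama1 kept its call under every alternative run. The log2 fold change of Gata4 was -2.83 without the haploid ESC library (adjusted p = 0.0314) and -4.47 without the diploid one (adjusted p = 0.00609), and its call ended among wild-type libraries alone (-3.63, adjusted p = 0.139). Lamb1 was 3.38 higher on the log2 scale without the haploid ESC library and 1.76 higher without the diploid one, where its call ended. The call also ended without haEpi1 and haEpi5, whose Trp53 RNA level exceeded that of the female wild-type EpiSC library (2.43, edgeR adjusted p = 0.059). Among wild-type libraries it ended too (2.34, edgeR adjusted p = 0.139). Of the rest, Afp (-3.07, adjusted p = 0.148), Pdgfra (1.53, adjusted p = 0.361) and Gata6 (-1.0, adjusted p = 0.202) had the largest fitted differences, and Afp passed without the filter on low counts (-3.08, adjusted p = 0.0351). Dab2 (0.51, adjusted p = 0.573) passed without the haploid ESC library (2.24, adjusted p = 0.0198) and was -0.30 without the diploid one. The median of the 10 was -0.73, and that of all genes -0.02.

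**Figure D4:**
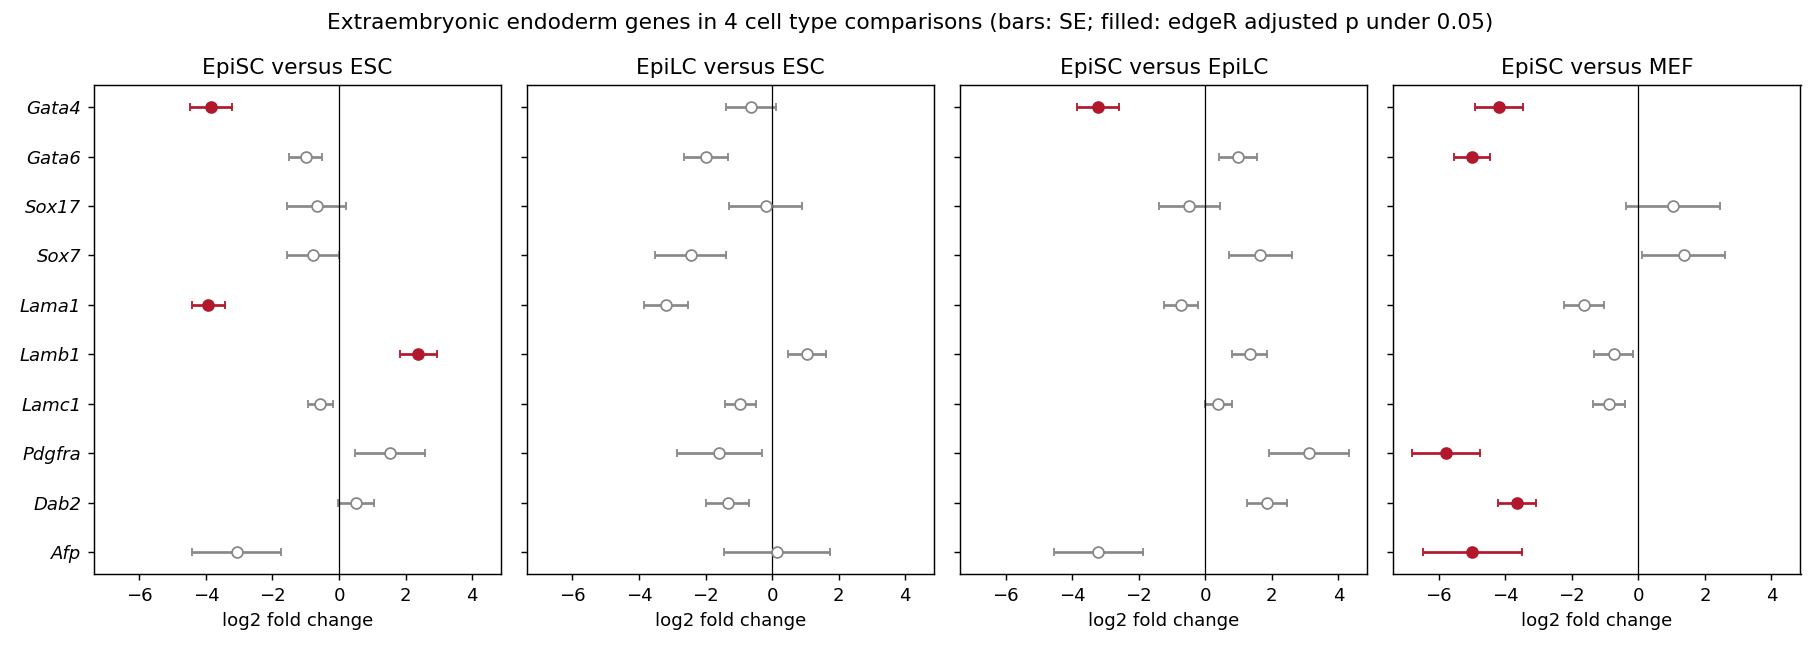
Log2 fold change of each of the 10 genes, with its standard error as a bar, in 4 comparisons of cell types; filled red points passed an adjusted p of 0.05 in edgeR. Gata4 is filled in each comparison of EpiSC (-3.84 against ESC, -3.21 against EpiLC, -4.19 against MEF), and none is filled between EpiLC and ESC.

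Between EpiSC and EpiLC (n = 2), which are both models of the primed or nearly primed epiblast, Gata4 alone fell. It was called as 1 of 10, against 9.65% of all genes, at 0.265 ± 0.0827 CPM (SD, n = 5) in EpiSC and 2.50 ± 1.98 CPM (SD, n = 2) in EpiLC (log2 fold change -3.21 ± 0.63 SE, adjusted p = 0.0148 in edgeR). The call rested on the p53-KO EpiLC library: without it the value was -2.01 (adjusted p = 0.163). It also ended without haEpi1 and haEpi5 (-3.32, adjusted p = 0.0872). The same held among wild-type libraries (-1.80, adjusted p = 0.503), with covariates for the p53 and ploidy labels (-2.74, adjusted p = 0.0863) and in limma on log2(FPKM + 0.1) and log2(FPKM + 1) (adjusted p = 0.0559 and 0.154). Dab2 was higher in every EpiSC than in every EpiLC library (1.85 ± 0.60 SE, edgeR adjusted p = 0.0822). So were Lamb1 (1.33 ± 0.51 SE, adjusted p = 0.127) and Sox7 (1.66 ± 0.94 SE, adjusted p = 0.282). Dab2, Lamb1 and Sox7 did not pass. Pdgfra differed by 3.11 ± 1.21 SE (adjusted p = 0.129). DESeq2 called Gata4, Pdgfra (adjusted p = 0.0115) and Dab2 (adjusted p = 0.015). In edgeR Dab2 also passed without the haploid (adjusted p = 0.0133) or the diploid (adjusted p = 0.0127) ESC library, and without a filter on low counts Dab2 (adjusted p = 0.00739), Pdgfra (0.00601), Lamb1 (0.0198) and Afp (0.0382) passed. The median of the 10 was 0.69, and that of all genes 0.01.

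Between EpiLC and ESC, 0 of 10 genes passed in edgeR, against 0.426% of all genes (90 of 21104). At an unadjusted p under 0.05, 3 of 10 genes and 3035 of all genes passed, and DESeq2 called 1 of 10 and 952 of all. That gene was Lama1 (DESeq2 adjusted p = 9.88e-05), which stood at 7.83 ± 2.16 CPM (SD, n = 2) in EpiLC and 71.2 ± 19.6 CPM (SD, n = 2) in ESC (edgeR log2 fold change -3.19 ± 0.67 SE, adjusted p = 0.0823). It also passed in edgeR without a filter on low counts (adjusted p = 0.00131) and in limma on log2(FPKM + 1) (adjusted p = 0.0111). The cell types did not overlap for Lama1, nor for Gata6 (-1.98 ± 0.66 SE, adjusted p = 0.233). Gata4 (-0.63 ± 0.76 SE, adjusted p = 0.733) and Lamb1 (1.05 ± 0.58 SE, adjusted p = 0.432) overlapped between the cell types. These comparisons share libraries: the EpiSC enter 3 of them and the ESC 2.

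Against the MEF library, EpiSC had lower Gata4, Gata6, Pdgfra, Dab2 and Afp, which is 5 of 10 in edgeR, against 14.7% of all genes; the lone MEF library was assumed to vary like the others. Pdgfra was 55.3-fold lower in EpiSC (-5.79 ± 1.02 SE, adjusted p = 0.00607) and Gata6 31.9-fold lower (-4.99 ± 0.54 SE, adjusted p = 0.000726). Gata4 (-4.19 ± 0.71 SE, adjusted p = 0.00528) and Dab2 (-3.65 ± 0.58 SE, adjusted p = 0.00376) were also lower. Afp (-5.00 ± 1.49 SE, adjusted p = 0.0497) lost its call when any 1 of the 5 EpiSC libraries was left out (adjusted p = 0.0651 to 0.0963) and in limma on log2(FPKM + 0.1) (adjusted p = 0.076). Lamb1 (-0.75 ± 0.59 SE, adjusted p = 0.443), Lamc1 (-0.88 ± 0.47 SE, adjusted p = 0.244) and Lama1 (-1.63 ± 0.61 SE, adjusted p = 0.102) did not pass, though Lama1 did without a filter on low counts (adjusted p = 0.0441).

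Among the EpiSC, the labels allow haploid p53-KO (n = 2), diploid wild type (n = 2) and diploid p53-KO (n = 1) to be compared. Gata4 and Afp, with 0 to 8 reads per EpiSC library, did not pass the filter on low counts, so 8 of 10 genes were tested. Sox17 passed it only through the 12 reads of the diploid p53-KO library. In edgeR 0 of 8 passed in each of the 3 contrasts, against 0% of the 18153 genes tested. Between haploid p53-KO and wild type, 641 genes and 0 of 8 passed at an unadjusted p under 0.05, and DESeq2 called 22 genes and 0 of 8. Between haploid and diploid p53-KO these were 1007 genes and 1 of 8, and 268 genes and 1 of 8 in DESeq2; between diploid p53-KO and wild type they were 700 genes and 1 of 8, and 135 genes and 1 of 8. The 1 gene was Pdgfra each time. It was 4.04 ± 0.96 SE higher on the log2 scale in haploid than in diploid p53-KO EpiSC (edgeR adjusted p = 0.634, DESeq2 adjusted p = 6.28e-05). This difference was 4.04 without the female and 4.03 without the male wild-type EpiSC library in the shared fit. In these fits Pdgfra had haEpi1 and haEpi5 (22.3 and 24.4 CPM) as its only replicates. It was 2.98 ± 0.91 SE lower in diploid p53-KO than in wild-type EpiSC (log2 -2.98, edgeR adjusted p = 1, DESeq2 adjusted p = 0.0237). This fold change was -3.65 without the male wild-type library and ran from -3.65 to -1.70 as 1 library was left out. Without a filter on low counts both differences passed in edgeR (adjusted p = 0.000109 and 0.0108). The wild-type libraries themselves stood at 17.8 and 4.64 CPM, and the fibroblast sums were 826 and 1600 CPM in haploid p53-KO, 731 and 374 CPM in wild-type and 1139 CPM in diploid p53-KO EpiSC. Of the 12 fibroblast markers, 2 were higher in diploid p53-KO than in wild-type EpiSC. Lamb1 (-0.01 ± 0.29 SE, adjusted p = 1) and Lamc1 (-0.20 ± 0.36 SE, adjusted p = 0.98) had small fitted differences between haploid p53-KO and wild-type EpiSC.

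The difference that goes with the p53 label in diploid EpiSC (1 p53-KO and 2 wild-type libraries) was set against the one in haploid EpiLC (1 library each). Cell type and ploidy cannot be told apart in this contrast. The interaction test covered 20583 genes, of which 0% passed in edgeR. At an unadjusted p under 0.05, 1578 genes and 2 of 10 passed, and DESeq2 called 337 genes and 2 of 10. These were Pdgfra (-5.82 ± 1.44 SE, edgeR adjusted p = 0.365, DESeq2 adjusted p = 0.00437) and Lamb1 (2.0 ± 0.53 SE, edgeR adjusted p = 0.399, DESeq2 adjusted p = 0.0492). Pdgfra was lower in the diploid p53-KO library than in both wild-type libraries of EpiSC, and higher in the p53-KO than in the wild-type library of EpiLC; haEpi1 and haEpi5, also labelled p53-KO, lay above both wild-type EpiSC libraries. Lamb1 was higher in the diploid p53-KO library of EpiSC (510 CPM against 433 and 395 in wild type) and lower in the p53-KO library of EpiLC (78.9 against 257 CPM), while the haploid p53-KO EpiSC libraries stood at 490 and 327 CPM. Without a filter on low counts both genes passed in edgeR (adjusted p = 0.000503 for Pdgfra and 0.0232 for Lamb1).

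The 2 ESC libraries differed from each other at most of the genes, and with 1 library each the difference has no replicate check. The haploid library was higher than the diploid one, beyond the 95% counting interval, at Gata4 (log2 ratio 1.67, 1.08 to 2.30), Sox7 (3.51, 2.33 to 5.00), Lamb1 (1.65, 1.53 to 1.78), Pdgfra (2.26, 1.67 to 2.91) and Dab2 (2.57, 2.21 to 2.96). Afp, with 61 reads against 0, was at least 16.3-fold higher, from 3 counts. Lama1 (-0.57, -0.68 to -0.45) and Lamc1 (-1.24, -1.28 to -1.20) were lower in the haploid library, so that the laminin chains did not move together. For Gata6 (-0.06, -0.79 to 0.68) and Sox17 (0.42, -1.18 to 2.16) the interval held 0. Of the 6 genes with at least 100 counts in either library 5 differed by more than 1 on the log2 scale, against 21.9% of 11770 such genes. The fibroblast sum was 945 CPM in the haploid and 15.8 CPM in the diploid library; its part in these differences was not tested.

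In the EpiLC pair, the p53-KO library was higher than the wild-type one at Gata4 (log2 ratio 1.83, 95% counting interval 1.04 to 2.70), Gata6 (1.96, 0.07 to 4.43), Pdgfra (2.87, 1.64 to 4.39), Afp (4.02, 2.39 to 6.35) and Lamc1 (0.80, 0.74 to 0.86). It was lower at Lamb1 (-1.70, -1.80 to -1.61), Lama1 (-0.57, -0.95 to -0.19) and Dab2 (-0.61, -1.05 to -0.17). The intervals of Sox17 (0.96, -0.94 to 3.15) and Sox7 (0.64, -1.15 to 2.60) held 0. Of the 4 genes with at least 100 counts in either library, Lamb1 alone differed by more than 1 on the log2 scale, against 17.9% of 11179 such genes. The fibroblast sum was 107 CPM in the p53-KO and 29.7 CPM in the wild-type library, and its part in these differences was not tested.

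**Figure D5:**
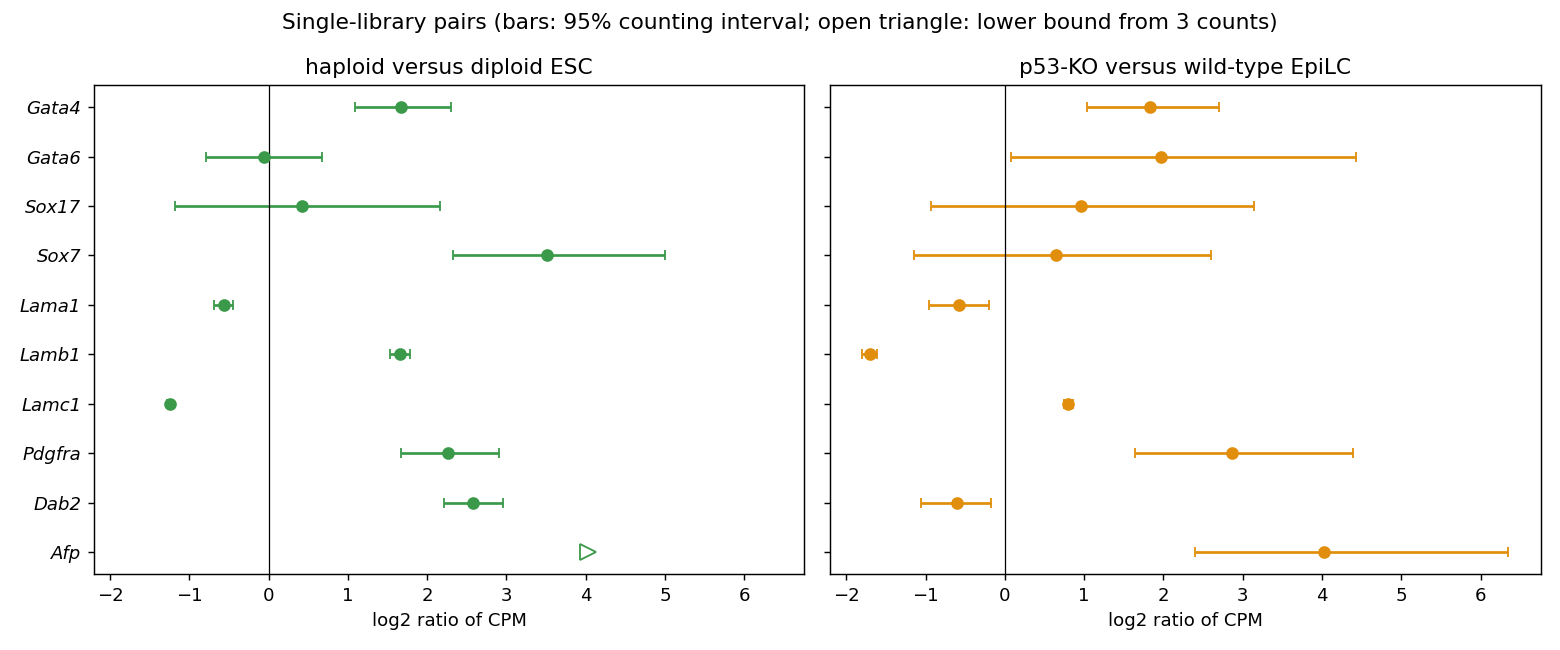
Log2 ratio of TMM-normalised CPM of each of the 10 genes in the haploid against the diploid ESC library (left) and in the p53-KO against the wild-type EpiLC library (right), with 95% counting intervals; the open triangle is the lower bound for Afp, which had 0 reads in the diploid ESC library. Gata4 and Pdgfra lie above 0 in both panels, and Lamb1 lies above 0 in the ESC pair (1.65) and below 0 in the EpiLC pair (-1.70).

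Other genes of the same programme were read from a list of 30 further markers of visceral and parietal endoderm, of which 26 had enough reads to be tested. Between EpiSC and ESC 1 rose and 5 fell, beside 1447 rising and 2126 falling genes of 21104. Lrp2, the endocytic receptor megalin of visceral endoderm, rose (3.16 ± 0.58 SE, adjusted p = 0.00655 in edgeR), from 49.9 to 445 CPM. The X-linked homeobox gene Rhox5 (-6.02 ± 0.68 SE, adjusted p = 0.000734) and Cpn1 (-5.25 ± 0.63 SE, adjusted p = 0.000912) fell. Hnf4a, a nuclear receptor of visceral endoderm, had 0 reads in all EpiSC libraries and was at least 4.02 lower on the log2 scale (log2 -4.02, from 3 counts per library; adjusted p = 0.0128). That bound rests mainly on the diploid ESC library, with 77 reads of Hnf4a (4.78 CPM) against 11 (0.549 CPM) in the haploid one. The median of the 26 was 0.08. Between EpiSC and EpiLC 1 of the 26 rose, Sparc (2.29 ± 0.48 SE, adjusted p = 0.0181), and 2 fell, beside 9.65% of all genes called: Rhox5 (-6.60 ± 0.70 SE, adjusted p = 0.00089) and Cpn1 (-4.98 ± 0.63 SE, adjusted p = 0.00211). MEF stood above EpiSC at Sparc (4592 against 635 CPM), and the part of fibroblast RNA in its rise was not tested. Between EpiLC and ESC 0 of 26 passed in edgeR (0.426% of all genes), 3 passed at an unadjusted p under 0.05 (3035 of 21104 genes), and DESeq2 called 1 (952 of all genes). Against MEF 1 of the 26 was higher and 3 were lower in EpiSC, near the 14.7% of all genes called.

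A list of 16 other basement membrane genes had a median of -1.16 between EpiLC and ESC, against -0.05 over all genes. There 0 passed in edgeR (0.426% of all genes), and DESeq2 called 6 (952 of all genes). Between EpiSC and ESC the median was 0.42, against -0.02 over all genes. Between EpiLC and EpiSC it was 1.60, against 0.01 over all genes. Of the 16 genes 7 rose and 0 fell there, beside 796 rising and 1240 falling genes of 21104. They included the collagen IV gene Col4a2 (4.17 ± 0.87 SE, adjusted p = 0.0184 in edgeR), the laminin chain Lama4 (3.67 ± 0.74 SE, adjusted p = 0.0162), and Serpinh1, a collagen chaperone (3.39 ± 0.57 SE, adjusted p = 0.00812). Fibroblasts also make these, and MEF stood above EpiSC at Lama4 (512 against 27.7 CPM), Col4a2 (1285 against 218 CPM) and Serpinh1 (2686 against 470 CPM); the part of fibroblast RNA was not tested. Between EpiSC and ESC 3 of the 16 passed, near the 16.9% of all genes: 2 rose, Lama4 (2.17 ± 0.66 SE, adjusted p = 0.0486) and Serpinh1 (2.09 ± 0.53 SE, adjusted p = 0.0249), and Nid2, a laminin-binding nidogen, fell (-1.21 ± 0.32 SE, adjusted p = 0.0295).

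The shares of all genes called, to be read beside the counts of the following short lists, were 16.9% against ESC and 9.65% against EpiLC. Of 9 laminin receptor genes, the integrin chains Itga3 (2.49 ± 0.41 SE, adjusted p = 0.00387 in edgeR) and Itgb1 (1.71 ± 0.43 SE, adjusted p = 0.0238) rose in EpiSC against ESC and 0 fell. Of 5 genes of PDGF ligands and the other receptor, Pdgfa, the chief ligand of PDGFRA, fell in EpiSC against ESC (-2.45 ± 0.72 SE, adjusted p = 0.0445). Against EpiLC, Pdgfb (3.68 ± 0.72 SE, adjusted p = 0.0146) and Pdgfrb (2.57 ± 0.41 SE, adjusted p = 0.00638) were higher in EpiSC; Pdgfrb is also 1 of the 12 fibroblast markers. Of 7 relatives and cofactors of the GATA and SOX factors 6 were tested against ESC, and the GATA cofactor Zfpm2 rose (3.16 ± 0.87 SE, adjusted p = 0.0344) and Gata1 fell (-4.40 ± 0.97 SE, adjusted p = 0.014) in EpiSC. Of 10 genes of the choice between epiblast and primitive endoderm, Nanog (-3.83 ± 0.49 SE, adjusted p = 0.0013), Klf4 (-4.49 ± 0.62 SE, adjusted p = 0.00174), Sox2 (-1.36 ± 0.32 SE, adjusted p = 0.0195) and Grb2 (-0.84 ± 0.19 SE, adjusted p = 0.0156) fell in EpiSC against ESC and the FGF receptor Fgfr2 rose (2.28 ± 0.59 SE, adjusted p = 0.0276).

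Likeness of pattern was described by Pearson's r of log2(CPM + 1) over the 10 libraries, which share cell type, depth and, for several genes, 1 far higher MEF value. By this r, Gata4 went most closely with Afp among the 10 genes (0.869, and 0.843 over the 9 libraries without MEF). By Spearman's rho, taken on ranks, Gata4 went more closely with Lama1 (0.624) than with Afp (0.578). Afp had at most 3 reads in 6 of the 10 libraries. Gata6 went with Pdgfra at 0.862, which was 0.409 without MEF, and Lamb1 with Dab2 at 0.706, which was 0.725 without MEF. Lama1 and Lamb1 had a negative r (-0.62, and -0.72 without MEF), but their Spearman's rho was only -0.22. Within EpiSC they did not go opposite ways: haEpi5 was lowest and the diploid p53-KO library highest for both. Over protein-coding genes with a mean of at least 5 CPM, the closest were Cyp26b1 for Pdgfra (0.988), Mpdz for Lamb1 (0.987), Pde3a for Gata6 (0.984) and Ubr3 for Lama1 (0.965).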

How the data were processed

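RNA was sequenced from 10 libraries, and the authors deposited 1 table of counts and 1 of FPKM, each with 54532 genes. Per the submitters' processing notes, reads were aligned to mm10 with HISAT2 2.0.5 and counted with featureCounts 1.5.0-p3. The deposited counts are whole reads per gene. The deposited FPKM equalled counts divided by gene length and 1 constant per library (largest relative deviation 1.66e-08 at counts above 20), and the constants lay within 1.16% of DESeq2 size factors. For the strand setting, nothing is stated in the labels, and reads of overlapping genes cannot be told apart; such genes had at most 25 reads within any of the 10. Replicate libraries differed beyond sampling noise (chi-square per degree of freedom 69.59 and 73.66).

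Differential expression on the counts came from edgeR 4.0.16 under R 4.3.3 (filterByExpr, TMM, quasi-likelihood F test, Benjamini-Hochberg threshold 0.05). One model held all 10 libraries for the cell types, another the 5 EpiSC libraries for their groups, and another the 9 pluripotent libraries for the interaction; a group with 1 library borrows its spread from the rest. Levels of the 10 genes use TMM factors over all genes, and group means of list genes those over the genes that passed the filter. Standard errors are the log2 fold change over the square root of F. DESeq2 1.42.0 and limma 3.58.1, on log2(FPKM + 1) and log2(FPKM + 0.1) with a filter of 1 FPKM, were run beside it, as were RLE factors, no filter on low counts, each library left out, covariates, and wild-type libraries alone. The edgeR fit was tested on simulated data. Single-library pairs carry exact conditional binomial 95% intervals and no test.

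The 10 genes and the 12 further lists were chosen with earlier results of these data known. All 10 genes were named everywhere. From a list, per comparison, up to 4 genes past the threshold with the largest change, or else the 2 with the smallest p, were eligible. So were the 3 genes most alike in pattern. Not all eligible genes are named: Itga3 and Fgfr1, both called between EpiSC and EpiLC, are among those left out. Grb2, Hnf4a's bound and the MEF values of basement membrane genes were added after their values were seen. A gene that this rule names is not reported here.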

Additional observations from a re-analysis of the deposited data

Results flagged for a closer look

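In the EpiSC group of 5 libraries, Sox17 in the diploid p53-KO library lay apart from the other 4, at 0.744 CPM against at most 0.251 CPM. The gap was 0.718 of the group's range, above the critical value of 0.71 for 5 samples. It rests on 12 reads, with a 95% Poisson interval of 0.385 to 1.30 CPM. This interval overlapped those of haEpi1 (up to 0.586 CPM), the female (up to 0.480 CPM) and the male library (up to 0.496 CPM). It did not overlap that of haEpi5 (up to 0.321 CPM). Chance alone sets 1 sample apart in about 1 in 20 groups by this measure, and 10 genes were examined. Its Pdgfra was the lowest of the EpiSC libraries, at 1.43 CPM. Its summed fibroblast markers stood at 1139 CPM, with 2 of the 12 higher than in wild-type EpiSC. The difference of Sox17 between diploid p53-KO and wild-type EpiSC was 2.10 ± 1.33 SE on the log2 scale and did not pass in edgeR. Sox17 passed the filter on low counts in this fit only through its 12 reads in the diploid p53-KO library. The other EpiSC libraries had 1 to 5 reads, so this test adds nothing to the gap.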

How the results depend on the processing

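No paired analysis was possible because the labels give no replicate numbers that the groups share. With DESeq2 the count of genes called was 952 between EpiLC and ESC (1 of the 10 genes), 3622 between EpiSC and EpiLC (3), 22, 268 (1) and 135 (1) in the EpiSC contrasts of haploid p53-KO with wild type, of haploid with diploid p53-KO and of diploid p53-KO with wild type, and 337 (2) for the interaction. Without a filter on low counts the same counts were 676 (1), 3162 (5), 136, 377 (1), 242 (1) and 549 (2). With limma on log2(FPKM + 1) they were 310 (1) between EpiLC and ESC and 164 for the interaction. With log2(FPKM + 0.1) they were 246 and 330. Either way limma called 0 of the tested genes among the 10 between EpiSC and EpiLC. Sox17 stayed under 1 FPKM in every library and was not tested in limma. The share of all genes that limma called between EpiSC and EpiLC is not given here, and in edgeR it was 9.65%. With covariates for the p53 and ploidy labels, 2243 genes were called between EpiSC and ESC, 29 between EpiLC and ESC and 1279 (0 of the 10) between EpiSC and EpiLC; Afp between EpiLC and ESC was then -1.39 and Lamc1 between EpiSC and EpiLC -0.057. Wild-type libraries alone gave 70 (1), 0 and 0 (0), with Afp at -2.94 between EpiLC and ESC. Without haEpi1 and haEpi5 together, chosen because of their Trp53 level, the counts were 1553, 3 and 418 (0). Apart from the fewer libraries in some fits, the causes were not tested.

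Leaving out 1 library at a time gave 1626 to 3569 genes between EpiSC and ESC, 1 to 216 between EpiLC and ESC, 554 to 2631 (0 to 2 of the 10) between EpiSC and EpiLC, and 0 to 144, 0 to 224 (0 to 1) and 0 to 152 (0 to 1) in the EpiSC contrasts, in the order above. The sign of the log2 fold change then turned for Sox7 (-1.69 to 1.76), Lamc1 (-1.07 to 0.20), Dab2 (-0.30 to 2.24) and Afp (-4.09 to 4.62) between EpiSC and ESC. Between EpiLC and ESC it turned for Gata4 (-1.85 to 0.38), Sox17 (-0.76 to 0.18), Sox7 (-3.36 to 0.11), Lamb1 (-0.084 to 2.04), Dab2 (-2.17 to 0.40) and Afp (-2.97 to 7.83). The upper values of Afp are set by an ESC library with 0 reads and are no bound. It turned for Sox17 (-0.86 to 0.086) between EpiSC and EpiLC. Between haploid p53-KO and wild-type EpiSC it turned for Sox17 (-1.43 to 0.58), Sox7 (-0.45 to 1.23), Lama1 (-1.16 to 0.85), Lamb1 (-0.34 to 0.25) and Lamc1 (-0.58 to 0.30). It turned for Sox7 (-0.68 to 0.87) between haploid and diploid p53-KO, and for Gata6 (-0.22 to 0.36), Sox7 (-0.25 to 0.93) and Lamc1 (-0.32 to 0.58) between diploid p53-KO and wild-type EpiSC. Counts of 0 to 12 reads limit Sox17 in every library and Gata4 and Afp in EpiSC.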
